A study of Mus musculus with 4 samples.

Results

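Genes that move, store or sense iron, 10 in all, were examined by RNA sequencing in BV-2, a mouse microglial cell line. They were taken by gene symbol from the deposited table of 24473 genes with FPKM values (fragments per kilobase of gene, scaled to library size), and each of the 10 symbols matched 1 row. There were 2 libraries of cells labelled SIX2 knockdown, titled sh s, and 2 libraries labelled WT, titled sh c and called control here. Cells of both groups had been exposed to lipopolysaccharide (LPS, a bacterial cell wall component) at 100 ng/mL for 24 h, so the effect of LPS itself cannot be read from these libraries. The titles give both groups the sh prefix, and the design text calls the knockdown shSIX2, a short hairpin RNA against the homeobox transcription factor SIX2. BV-2 is 1 transformed line, and the labels do not say whether the libraries of a group came from separate cultures, so each p-value reflects no more than the spread among these 4 libraries, which could be technical.

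The libraries held 60956299 to 75672836 counts, of which the iron genes took 1.21% and 1.41% in the knockdown libraries and 1.28% and 1.48% in the control libraries. Six2 had 0 counts in all 4 libraries, which allows up to 0.161 and 0.187 CPM (counts scaled to library size) in the knockdown libraries and 0.159 and 0.197 CPM in the control libraries (3 fragments, or 12 counts, counting error only). The knockdown could therefore not be checked on its own transcript. Of 10 microglia and macrophage markers, 8 were above 1 CPM in every library. The 10 summed to 1710 and 1665 CPM in the knockdown libraries, against 1821 and 1866 CPM in the control libraries. Among the 8, Csf1r (231 and 215 CPM, against 309.9 and 312 CPM, adjusted p = 0.0426 by edgeR) and Aif1 (9.61 and 11.5 CPM, against 20.1 and 23.5 CPM, adjusted p = 0.0440 by edgeR) were lower in knockdown cells. Tmem119 had 14.8 and 12.2 CPM in knockdown libraries, against 26.2 and 22.4 CPM in control libraries, and did not pass (adjusted p = 0.0751 by edgeR). The groups overlapped for Cd68 (654 and 628 CPM in knockdown, against 650.0 and 667 CPM in control libraries). They also overlapped for Tyrobp (303 and 309.8, against 303 and 316 CPM) and Itgam (93.7 and 80.5, against 89.2 and 94.9 CPM). Fcer1g had 257 and 256 CPM, against 276 and 291 CPM, and Ptprc 146 and 150.2 CPM, against 146 and 140.0 CPM. The part of these marker differences in the values of the iron genes was not tested. Cx3cr1 was between 0.257 and 0.853 CPM, and P2ry12 had 0 counts in both knockdown libraries and 0.315 and 0.0647 CPM in the control libraries.

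Cells take up iron mainly as transferrin through the transferrin receptor (Tfrc). The metal transporter DMT1 (Slc11a2) carries it out of endosomes, ZIP14 (Slc39a14) takes up iron not bound to transferrin, and NRAMP1 (Slc11a1) pumps metal out of the phagosomes of macrophages. Ferritin, a shell of heavy (Fth1) and light (Ftl1) chains, stores the metal, NCOA4 delivers ferritin to lysosomes, and ferroportin (Slc40a1) is the known iron exporter of mammalian cells. The iron regulatory proteins IRP1 (Aco1) and IRP2 (Ireb2) bind hairpins called iron-responsive elements when iron is scarce. Binding in a 5′ UTR blocks translation, as in the ferritin mRNAs, whereas binding in the 3′ UTR of the Tfrc mRNA protects it from decay. Macrophages and microglia recycle iron, and LPS is known to alter several of these genes in them.

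The hairpins are shown because they mark members whose mRNA is a known target of IRP1 and IRP2, though not every such member. GENCODE M21 protein-coding transcripts (GRCm38) were searched on the sense strand for C, 5 bases, the loop CAGTGN and 5 bases that pair with the first 5, G with T allowed. In the lines below the loop is in capitals, and each line is a 30-base window read 5′ to 3′.
Fth1: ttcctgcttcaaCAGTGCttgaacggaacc
Ftl1: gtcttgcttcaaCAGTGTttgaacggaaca
Slc40a1: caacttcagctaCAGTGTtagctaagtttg
Tfrc site A: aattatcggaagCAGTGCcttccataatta
Tfrc site B: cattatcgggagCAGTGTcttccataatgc
Tfrc site C: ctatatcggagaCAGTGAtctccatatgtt
Tfrc site D: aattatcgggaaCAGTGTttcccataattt
Fth1 (chr19:9982732-9982761, plus strand), Ftl1 (chr7:45459778-45459807, minus strand) and Slc40a1 (chr1:45925464-45925493, minus strand) each had 1 match, in the 5′ UTR. Tfrc had 4 matches, all in the 3′ UTR on the plus strand (chr16:32631219-32631248, chr16:32631598-32631627, chr16:32631663-32631692 and chr16:32631710-32631739). Sites A to D are lettered here by position among these matches, and the search would miss elements of a looser form. A match was found in the 5′ UTR of 31 of 20916 genes (0.148%) and in the 3′ UTR of 129 of 21045 genes (0.613%), with UTRs of differing lengths. The other 6 members had no match, among them Slc11a2, for which an element of a looser form is known in 1 mRNA isoform. A lack of a match says only that these letters were not found, and a match is a description, not a measured binding site. The deposited annotation placed 7 of the 10 members in the KEGG ferroptosis pathway, which held 40 genes of the table, and 4 in mineral absorption, which held 37.

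The ferritin transcripts were the most abundant of the 10, and the exporter transcript was the scarcest. Ftl1 ranked 7 and Fth1 ranked 22 of 24473 genes by mean FPKM, whereas Slc40a1 ranked 14228. Over the 4 libraries the order per gene length was Ftl1 (3900 to 4340 FPKM), Fth1 (1181 to 2068), Tfrc (55.4 to 75.7), Slc11a1 (46.5 to 54.4), Slc11a2 (23.6 to 25.0), Aco1 (8.74 to 9.65), Ireb2 (7.70 to 8.77), Ncoa4 (5.73 to 7.28), Slc39a14 (4.64 to 5.46) and Slc40a1 (0.0505 to 0.223). Aco1 and Ireb2 were the only neighbours in this order whose ranges overlapped. The order depends on the gene lengths used for FPKM. In counts Fth1 was above Ftl1 in replicate 2 of each group (448619 against 385117 in knockdown, 485137 against 353493 in control). In replicate 1 it was below (340922 against 481372 in knockdown, 396705 against 490379 in control).

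**Figure D1:**
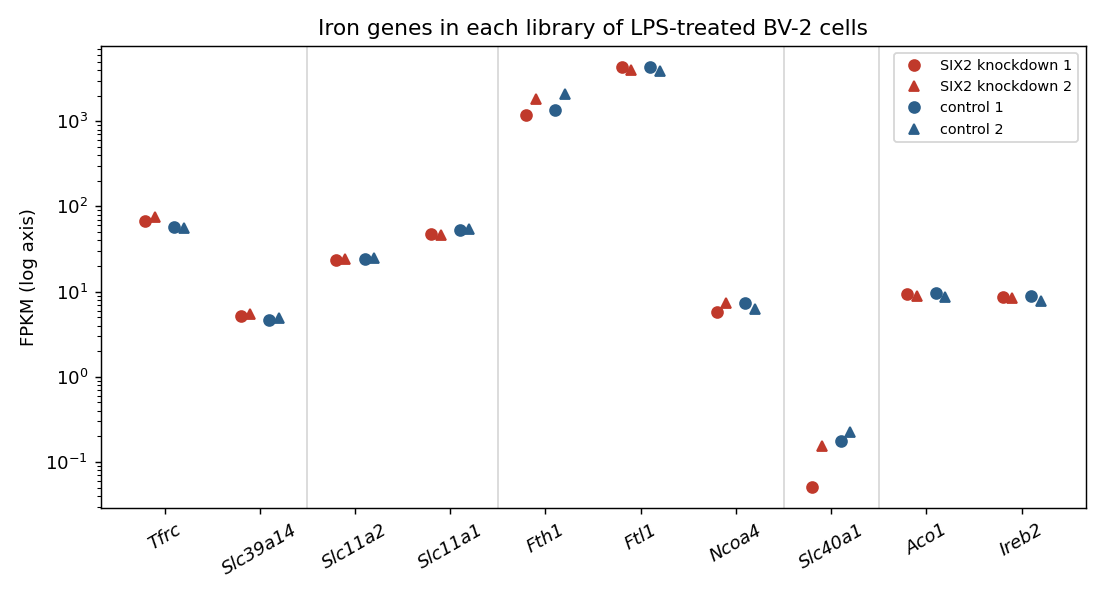
FPKM of the 10 iron genes (log axis) in each library, SIX2 knockdown in red left of control in blue, circles for replicate 1 and triangles for replicate 2, with vertical lines between roles. Most genes lie at nearly the same level in all 4 libraries, Fth1 splits by replicate number in both groups, and Slc40a1 lies lowest.

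None of the iron genes passed the test between knockdown and control. All 10 had enough counts to be tested, and 0 had a Benjamini-Hochberg adjusted p under 0.05 by edgeR's quasi-likelihood test, against 150 of 15733 genes (0.953%) overall. At an unadjusted p under 0.05 there was 1 member, Tfrc, against 14.2% of all tested genes. The groups did not overlap in TMM-scaled CPM for 4 of 10 members, against 47.6% of all tested genes. DESeq2, which called 4.19% of the genes it tested, called 1 member, Tfrc, and the other fits called 0. The members' median log2 fold change was 0.01, against -0.01 for all tested genes, with 5 fitted values above 0 and 5 below.

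**Figure D2:**
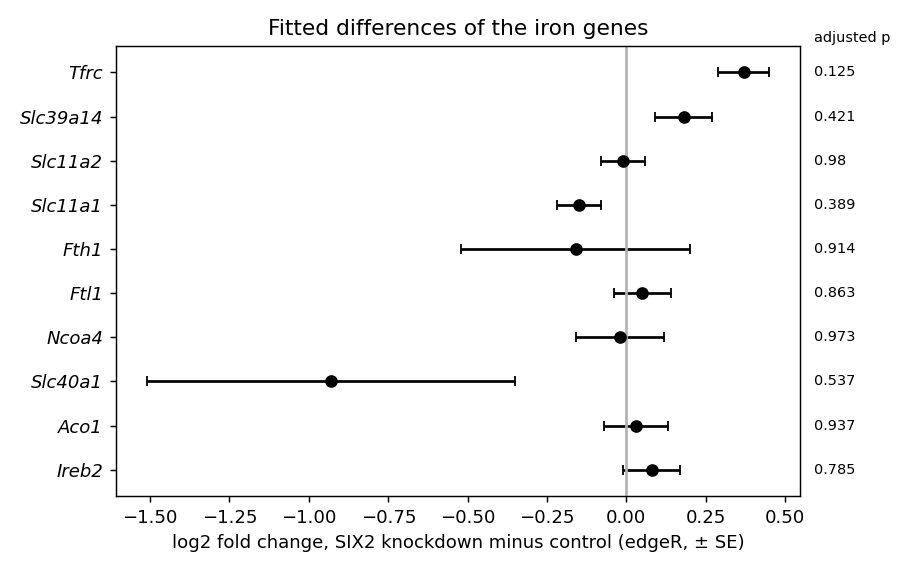
Fitted log2 fold change of each iron gene, SIX2 knockdown minus control, with its SE from edgeR (n = 2 libraries each) and the adjusted p at the right. Only Tfrc (0.37 ± 0.08) lies several SE from 0, and the intervals of Fth1 and Slc40a1 are the widest.

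Tfrc (ENSMUSG00000022797, chr16:32608920-32632794, plus strand), the receptor for iron-loaded transferrin, had the lowest adjusted p of the members. It had 66.6 and 75.7 FPKM in the knockdown libraries, against 57.6 and 55.4 FPKM in the control libraries. Both knockdown libraries were above both control libraries. In TMM-scaled CPM it averaged 496 ± 46.5 in knockdown and 384 ± 13.4 in control cells (SD, n = 2 each), a fitted ratio of 1.29. On the log2 scale the fold change was 0.37 ± 0.08 (SE), with an adjusted p of 0.125 by edgeR, so it did not pass over all genes. DESeq2 gave an adjusted p of 0.0106. Over all fits the log2 fold change was 0.27 to 0.46 and the adjusted p 0.0106 to 0.436.

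Slc39a14 (ENSMUSG00000022094, chr14:70303469-70351425, minus strand), the ZIP14 transporter of zinc and non-transferrin iron, had 5.14 and 5.46 FPKM in the knockdown libraries, against 4.64 and 4.95 FPKM in the control libraries. The groups did not overlap in either FPKM or TMM-scaled CPM. The log2 fold change was 0.18 ± 0.09 (SE, adjusted p = 0.421 by edgeR). Its close relative Slc39a8 had 0 counts in all 4 libraries.

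The NRAMP pair encodes the DMT1 and NRAMP1 transporters, related proteins that sit in different compartments. Slc11a2 (ENSMUSG00000023030, chr15:100387898-100424092, minus strand) had 23.6 and 24.3 FPKM in the knockdown libraries, against 24.3 and 25.0 FPKM in the control libraries. Its fitted difference was the closest to 0 of the 10. In CPM it averaged 171 ± 4.45 in knockdown and 172 ± 1.99 in control cells (SD, n = 2 each), with a log2 fold change of -0.01 ± 0.07 (SE). Slc11a1 (ENSMUSG00000026177, chr1:74375195-74386052, plus strand), the phagosomal transporter of macrophages, had 47.3 and 46.5 FPKM in the knockdown libraries, against 52.2 and 54.4 FPKM in the control libraries. Both knockdown libraries were below both control libraries. Slc11a1 did not pass, with a log2 fold change of -0.15 ± 0.07 (SE, adjusted p = 0.389 by edgeR). Slc11a2 overlaps Gm5475 on the opposite strand, a gene model with 11 and 0 counts in the knockdown libraries and 0 and 4 in the control libraries.

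The heavy chain of ferritin differed between libraries of the same group by more than it differed between the groups. Fth1 (ENSMUSG00000024661, chr19:9980598-9985092, plus strand), the heavy chain with ferroxidase activity, had 1181 and 1810 FPKM in the knockdown libraries, against 1356 and 2068 FPKM in the control libraries. The groups overlapped, and in each group replicate 2 was the higher library, by 1.54-fold in knockdown and 1.51-fold in control cells (TMM-scaled CPM). Fth1 had a log2 fold change of -0.16 ± 0.36 (SE, adjusted p = 0.914 by edgeR). Of 2234 tested genes averaging 100 CPM or more, 97.9% had a smaller SE than Fth1, and their median SE was 0.08. Its direction depended on the libraries used, with a log2 fold change of 0.12 without knockdown replicate 1 and 0.17 without control replicate 2, against -0.50 without knockdown replicate 2 and -0.43 without control replicate 1.

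Ftl1 (ENSMUSG00000050708, chr7:45457944-45459884, minus strand), the light chain, had 4315 and 4021 FPKM in the knockdown libraries, against 4340 and 3900 FPKM in the control libraries. The groups overlapped. Replicate 2 was the lower library in each group, by a small margin (0.936 of replicate 1 in knockdown and 0.889 in control cells, TMM-scaled CPM), opposite to Fth1. The log2 fold change was 0.05 ± 0.09 (SE, adjusted p = 0.863 by edgeR).

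How reads were shared out makes the Ftl1 level uncertain. Its copy Ftl1-ps1, annotated as protein-coding, had 2.31% and 2.46% of the Ftl1 count in the knockdown libraries and 2.11% and 2.14% in the control libraries. The processed pseudogene Ftl2-ps had 257 and 115 counts in the knockdown libraries, against 246 and 1885 in the control libraries, so control replicate 2 stood apart. Ftl1-ps2 had at most 56 counts in any library. Gm22133, a miRNA gene model inside the Ftl1 gene on the same strand, carried 45975 and 32224 counts in the knockdown libraries and 42209 and 38472 in the control libraries. Summing the copies with Ftl1 gave a log2 fold change of 0.05, and summing Gm22133 with it gave 0.04. The pseudogenes and heavy-chain-like genes named after Fth1 had 0 counts in all libraries.

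**Figure D3:**
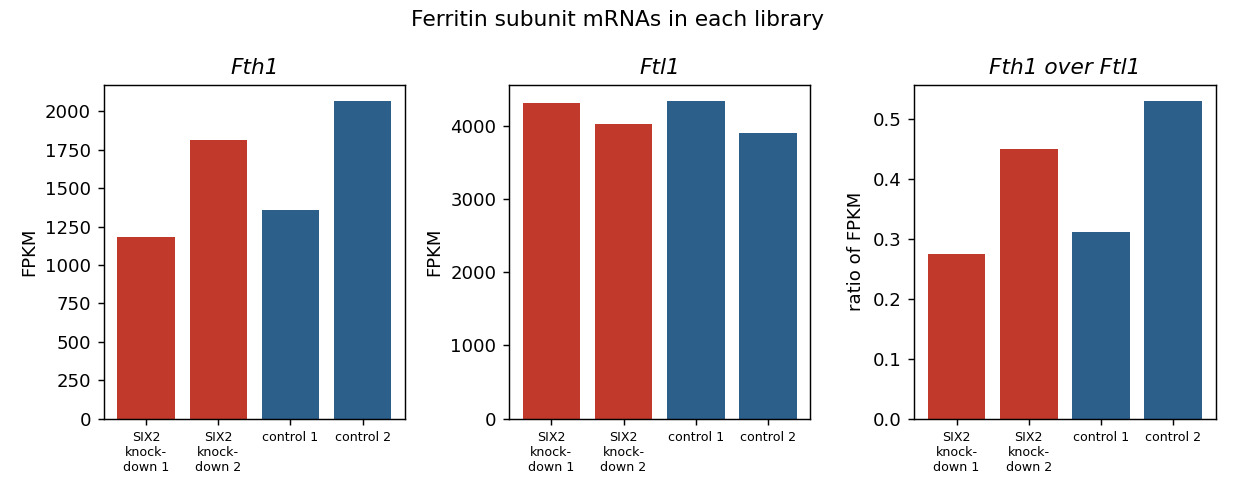
FPKM of Fth1 and of Ftl1 and the ratio of Fth1 to Ftl1 within each library, 1 bar per library, SIX2 knockdown in red left of control in blue. Replicate 2 of each group has more Fth1 (1810 and 2068 FPKM) than replicate 1 (1181 and 1356 FPKM), and the ratio follows it.

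Ncoa4 (ENSMUSG00000056234, chr14:32159865-32179855, plus strand), the receptor that takes ferritin to the lysosome, had 5.73 and 7.28 FPKM in the knockdown libraries, against 7.27 and 6.25 FPKM in the control libraries. The groups overlapped, and the libraries of a group differed more than the group means. In CPM it averaged 68.7 ± 11.8 in knockdown and 69.7 ± 7.99 in control cells (SD, n = 2 each). The log2 fold change was -0.02 ± 0.14 (SE, adjusted p = 0.973 by edgeR).

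Slc40a1 (ENSMUSG00000025993, chr1:45908068-45926523, minus strand), the exporter ferroportin, was barely expressed. It had 39 and 100 counts in the knockdown libraries, against 136 and 137 in the control libraries, or 0.0505 and 0.152 FPKM against 0.178 and 0.223 FPKM. Both knockdown libraries were below both control libraries, but they differed from each other by more than knockdown replicate 2 differed from control replicate 1. In CPM it averaged 1.05 ± 0.744 in knockdown and 2.00 ± 0.306 in control cells (SD, n = 2 each). Its log2 fold change of -0.93 ± 0.58 (SE, adjusted p = 0.537 by edgeR) was the largest and least precise of the 10. It was -0.34 without knockdown replicate 1 and -1.92 without knockdown replicate 2, and neither passed.

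Trace transcripts known as markers of other cell types also differed between the libraries. BV-2 is 1 line, so these transcripts do not show that other cells were present. A bulk library cannot tell where they came from, and their source was not tested. The 4 oligodendrocyte markers summed to 8.37 and 0.316 CPM in the knockdown libraries, against 15.1 and 14.3 CPM in the control libraries. The globin gene Hbb-bs was at 3.36 and 0.111 CPM in the knockdown libraries, against 9.54 and 7.49 CPM in the control libraries, and Hba-a1 at 2.70 and 0 CPM, against 7.64 and 5.56 CPM. These values were lowest in knockdown replicate 2 and Slc40a1 in knockdown replicate 1. Both they and Slc40a1 were lower in both knockdown libraries than in both control libraries. The order of 2 libraries cannot separate them. The 5 neuronal markers summed to 2.35 and 0 CPM in knockdown, against 5.02 and 4.53 CPM in control libraries, with Th at 0 throughout. The 4 astrocyte markers summed to 2.03 and 0.711 CPM, against 4.52 and 3.17 CPM, and the 4 fibroblast markers to 0.338 and 0.0632 CPM, against 0.642 and 0.517 CPM. None of these markers reached 1 CPM in all 4 libraries, and their part in the Slc40a1 values was not tested.

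**Figure D4:**
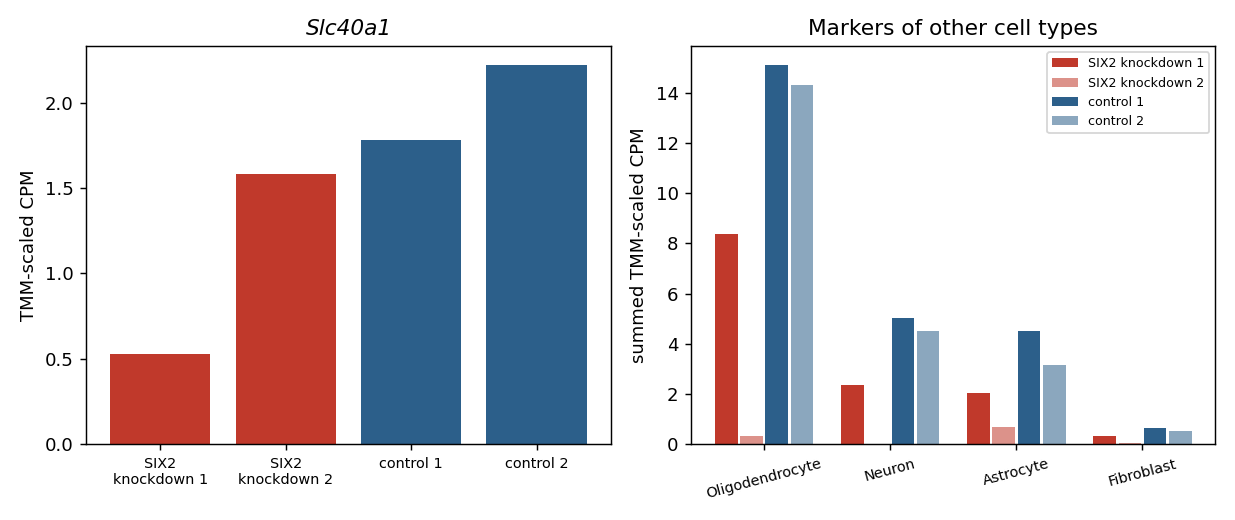
Left, TMM-scaled CPM of Slc40a1 in each library; right, summed TMM-scaled CPM of markers of 4 other cell types, with SIX2 knockdown in red left of control in blue. Slc40a1 is lowest in knockdown replicate 1 (0.527 CPM) and the marker sums in knockdown replicate 2. Both Slc40a1 and the marker sums are lower in the knockdown than in the control libraries.

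The sensors of cytosolic iron were at similar levels in all 4 libraries. Aco1 (ENSMUSG00000028405, chr4:40143081-40198338, plus strand), which is cytosolic aconitase when it holds an iron-sulphur cluster and IRP1 when it does not, had 9.41 and 8.96 FPKM in the knockdown libraries, against 9.65 and 8.74 FPKM in the control libraries. Ireb2 (ENSMUSG00000032293, chr9:54863789-54912530, plus strand), which encodes IRP2, a protein degraded when iron is plentiful, had 8.64 and 8.32 FPKM in the knockdown libraries, against 8.77 and 7.70 FPKM in the control libraries. In FPKM the knockdown libraries lay within the span of the control libraries for both genes. In TMM-scaled CPM this held for Aco1, whereas Ireb2 in knockdown replicate 1 (92.1) was just above control replicate 1 (91.9). The log2 fold changes were 0.03 ± 0.10 for Aco1 and 0.08 ± 0.09 for Ireb2 (SE, adjusted p = 0.937 and 0.785 by edgeR). These are transcript levels, and the activity of both proteins is set mainly after transcription.

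Ratios within a library do not depend on the scaling between libraries, but the level of an FPKM ratio depends on the gene lengths used. The FPKM ratio of Tfrc to Fth1, import over storage, was 0.0564 and 0.0418 in the knockdown libraries, against 0.0425 and 0.0268 in the control libraries, which overlapped. Fth1 over Ftl1 was 0.274 and 0.450, against 0.312 and 0.530, and also overlapped. Slc11a2 over Slc11a1 was 0.498 and 0.523 in the knockdown libraries, above 0.466 and 0.460 in the control libraries. Aco1 over Ireb2 was 1.09 and 1.08 in the knockdown libraries and 1.10 and 1.13 in the control libraries. That order of the IRP1 and IRP2 transcripts holds only per gene length. In counts Ireb2 was the higher, at 6819 and 5637 against 3524 and 2880 for Aco1 in the knockdown libraries. The control libraries had 7008 and 4939 counts of Ireb2, against 3661 and 2659 of Aco1. Tfrc over Slc40a1 was 1318 and 498 in the knockdown libraries, against 324 and 249 in the control libraries, and rests on the few Slc40a1 counts. The exact two-sided permutation test over libraries gave p = 0.333 for the 3 ratios that did not overlap, the smallest that 2 against 2 libraries allow, and p = 0.667 for the other 2.

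The wider iron genes were also without a change that passed. In 5 lists, 71 genes were tested, and 0 passed an adjusted p of 0.05 by edgeR. At an unadjusted p under 0.05, 6 of them had higher and 7 had lower values in knockdown cells, against 14.2% of all tested genes past that p in either direction. DESeq2 called 4 of them, against 4.19% of all genes it tested. edgeR with no filter on low counts, which tested further list genes beyond these 71, also called 4, against 1.30% of all its genes. These were the same 4 genes in both fits, all from the list of iron uptake, reduction and systemic partners.

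That list held 11 tested genes of 20, of which 2 had higher and 4 lower values at an unadjusted p under 0.05 (14.2% of all tested genes had one). Like the others it was chosen with earlier results of these data known, so its share cannot be read as an excess. The median log2 fold change was -0.26, and 2 of the 11 genes averaged under 1 CPM. The lowest value in it, Ltf (-2.11), rests on 71 and 0 counts in the knockdown libraries, against 209 and 90 in the control libraries. Lrp1, a scavenger receptor whose ligands include haem bound to haemopexin, averaged 269 ± 16.2 CPM in knockdown and 199 ± 3.53 CPM in control cells (SD, n = 2 each; adjusted p = 0.0656 by edgeR). Steap3, the ferrireductase that works beside Tfrc in endosomes, averaged 91.1 ± 6.84 and 64.0 ± 1.56 CPM (adjusted p = 0.0680). Lcn2, lipocalin 2, which binds the iron carriers of bacteria, averaged 95.5 ± 2.05 CPM in knockdown and 145 ± 20.4 CPM in control cells (adjusted p = 0.0726). Cp, the ferroxidase ceruloplasmin that works with ferroportin, averaged 13.5 ± 0.782 and 21.8 ± 2.35 CPM (adjusted p = 0.0969). These are the 4 genes called by the other fits, with adjusted p of 0.000864 for Steap3, 0.000145 for Lcn2, 0.00497 for Cp and 0.000501 for Lrp1 by DESeq2. Steap3 and Cp were named after their values were seen. Hfe, which binds the transferrin receptor and was also named after its values were seen, averaged 11.3 ± 1.61 and 16.1 ± 1.80 CPM (adjusted p = 0.240 by edgeR). Trf, transferrin itself, averaged 167 ± 5.00 CPM in knockdown and 196 ± 2.51 CPM in control cells (adjusted p = 0.216).

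In the list of iron regulatory protein control, chaperones and ferritin turnover, 13 of 15 genes were tested, 1 had a higher value at an unadjusted p under 0.05, against 14.2% of all tested genes (Cul1, chosen after its value was seen, adjusted p = 0.297 by edgeR) and the median log2 fold change was 0.07. The iron chaperones Pcbp1 and Pcbp2 were its most abundant genes. Pcbp2 averaged 456 ± 9.25 CPM in knockdown and 432 ± 60.6 CPM in control cells (SD, n = 2 each), and Pcbp1 averaged 403 ± 16.3 and 413 ± 8.04 CPM. Glrx3, a glutaredoxin that handles iron-sulphur clusters, averaged 263 ± 15.5 and 246 ± 4.77 CPM.

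Of 25 genes of mitochondrial iron, iron-sulphur clusters and haem, all were tested, 0 had an unadjusted p under 0.05 by edgeR, against 14.2% of all tested genes, and 0 were called by DESeq2, and the median log2 fold change was -0.02. Hmox1, haem oxygenase 1, which frees iron from haem, averaged 224 ± 10.3 CPM in knockdown and 215 ± 16.4 CPM in control cells (SD, n = 2 each). The iron-sulphur assembly genes Glrx5 and Nfs1 averaged 189 ± 10.3 and 128 ± 0.763 CPM in knockdown cells, against 189 ± 9.73 and 126 ± 7.94 CPM in control cells.

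Of 6 other mRNAs with a reported iron-responsive element, 1 had a lower value at an unadjusted p under 0.05, against 14.2% of all tested genes. This was Pfn2, chosen after its value was seen (adjusted p = 0.325 by edgeR). It had 35 and 12 counts in the knockdown libraries, against 85 and 68 in the control libraries. The median log2 fold change was -0.24. It takes in Pfn2 (-1.73) and Alas2 (-1.76), which averaged under 1 CPM, so no shift of the list is read from it. Epas1, the hypoxia factor HIF-2 alpha, averaged 19.8 ± 4.36 CPM in knockdown and 17.7 ± 0.462 CPM in control cells (SD, n = 2 each), and Cdc42bpa averaged 9.78 ± 0.598 and 8.01 ± 0.221 CPM. The search above found its motif in neither of them and found it in the 5′ UTR of Alas2, the erythroid haem enzyme. Alas2 had 15 and 0 counts in the knockdown libraries, against 29 and 20 in the control libraries, in the order of the globin genes given above.

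Of 18 ferroptosis and lipid peroxide control genes, 16 were tested, of which 3 had higher and 2 lower values at an unadjusted p under 0.05, against 14.2% of all tested genes, with a median log2 fold change of 0.02. Gpx4, the peroxidase that holds back ferroptosis, averaged 315 ± 22.9 CPM in knockdown and 327 ± 25.0 CPM in control cells (SD, n = 2 each). Vdac2, an outer mitochondrial membrane channel, averaged 352 ± 11.4 and 349 ± 20.2 CPM. Besides Trp53, those past the unadjusted p were Gclc and Gclm, with higher values, and Lpcat3 (38.9 ± 1.16 and 48.3 ± 1.69 CPM) and Slc3a2 (226 ± 6.60 and 257 ± 7.59 CPM), with lower ones, all named after their values were seen. Trp53, which encodes p53, averaged 374 ± 30.6 and 301 ± 22.7 CPM, with an adjusted p of 0.192 by edgeR.

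**Figure D5:**
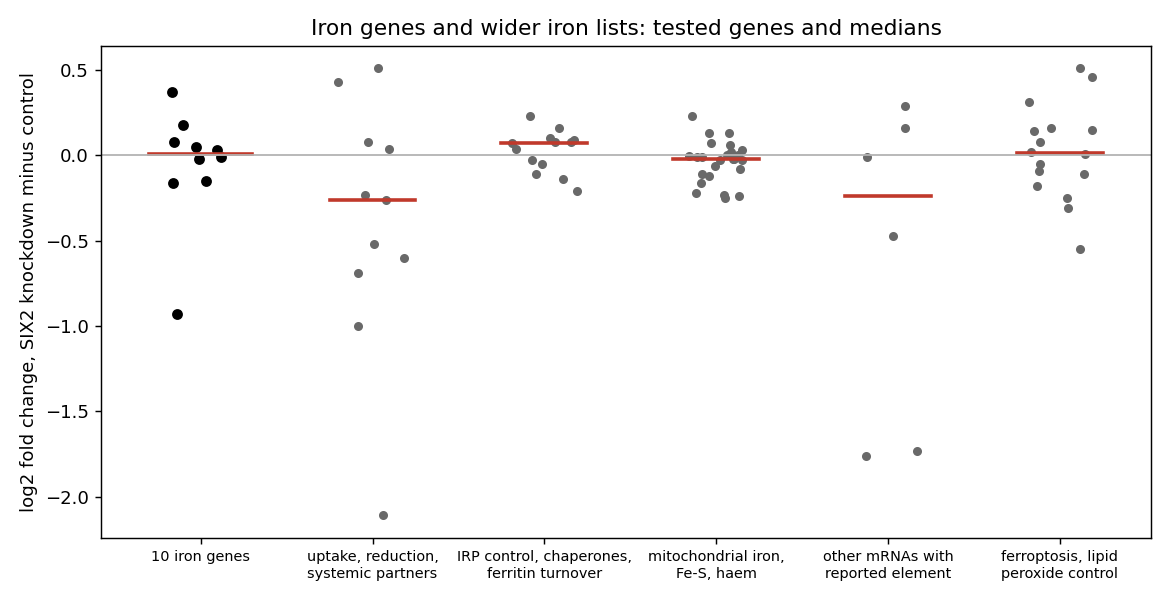
Log2 fold change (SIX2 knockdown minus control, edgeR) of the tested genes of the 10 iron genes and of each wider list, 1 point per gene and a red line at the median. The medians run between -0.26 and 0.07, and the lowest points are genes of low count.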

How the data were processed

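Per the labels' protocols, poly(A) RNA was made into dUTP-marked libraries and sequenced paired-end. The authors' deposited values were estimated counts per Ensembl gene, whole numbers and not normalised, and FPKM, named so per the file headers. Bowtie 0.12.2 and build mm8 are named per the submitters' processing notes, with no role stated, and the tool used for counting was not given in the sources used here. Of 24422 genes shared with GENCODE M21 (GRCm38), 89.4% had identical coordinates, and coordinates are given on that build. Counts of 1 to 20 fell on multiples of 4 in 42.1% to 47.2% of cases, so 1 fragment was taken as 4 counts. The 12 columns that match no labelled sample were not used.

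The 4 libraries were compared as 2 against 2 with edgeR 4.0.16 in R 4.3.3 (filterByExpr, TMM, robust quasi-likelihood F test, two-sided, no covariate), with Benjamini-Hochberg adjustment over 15733 genes and a threshold of 0.05. Tested on simulated data, the fit recovered large changes but missed most of the smallest ones simulated. Replicates differed by more than counting error (chi-square over its degrees of freedom 16.9 for knockdown and 16.2 for control). Alternatives used DESeq2 1.42.0, limma 3.58.1, other scalings and filters, FPKM with 1 or 0.1 added (genes with any value above 0), and leaving out each library. The text names all members, and from each list any gene that passed and up to 3 of the highest CPM. Members and lists were chosen with earlier results of these data known. In the lists, Skp1 was not matched by symbol, and some genes are not reported here.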

Additional observations from a re-analysis of the deposited data

How the results depend on the processing

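No member passed in any fit except Tfrc with DESeq2, where the count of members called was 1 in place of 0. In the list of uptake, reduction and systemic partners the count was 4 with DESeq2 and 4 with no filter on low counts, in place of 0, and the other lists stayed at 0 in every fit run. Over all genes the count of 150 became 680 with DESeq2, 65 with limma-voom, 7 without edgeR's robust option, 297 with no filter, 7 at an adjusted p under 0.01, and 41 to 112 when 1 library was left out. It was 0 with limma on log2(FPKM + 1) or log2(FPKM + 0.1), where 2513 and 2434 genes had an unadjusted p under 0.05. It was also 0 with the replicate number as a block, where 2055 had one. The numbers are not stated to pair libraries, and the deviations of same-numbered libraries correlated at 0.05 across 15733 genes. With the block, Fth1 had an adjusted p of 0.310 and Tfrc 0.225.

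Members near 0 changed sign with the libraries used. With 1 library left out, Fth1 (-0.50 to 0.17, with 0.12 without knockdown replicate 1) and the log2 ratio of Fth1 to Ftl1 (-0.60 to 0.17, with 0.14 without knockdown replicate 1) did so, as did Ftl1 (-0.03 and -2.1e-05), Slc11a2 (0.01 and 0.02), Ireb2 (-0.02 to 0.18) and Ncoa4 (-0.20 to 0.14, with 0.10 without control replicate 1). Aco1 gave -0.04 to 0.11 and, without knockdown replicate 1, -0.0028, -0.00045 with library totals alone, and -0.00049 and -0.00043 on FPKM. None of these passed, and the cause was not tested. Slc40a1 had the fewest counts of the 10 genes, at most 137 in a library.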

Other observations

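Fth1 was the only gene among 101 averaging 1000 CPM or more that differed at least 1.5-fold in the same direction between replicate 2 and replicate 1 in both groups. Among 2234 genes averaging 100 CPM or more there were 6 such genes. Rpl17, a ribosomal protein gene, was also higher in replicate 2, by 1.57-fold in knockdown and 2.80-fold in control cells. The other 4 were lower in replicate 2: Sumo3 (0.344 in knockdown and 0.639 in control), Eif5 (0.642 and 0.594), Rpl17-ps10 (0.666 and 0.597) and Gm7336 (0.500 and 0.347). These genes were chosen after their values were seen, and Rpl17 and Rpl17-ps10 are a gene and its pseudogene, which went in opposite directions.

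Gclc and Gclm, the subunits of the enzyme that limits glutathione synthesis, both had higher values in knockdown libraries without passing. Gclc averaged 61.8 ± 1.06 CPM in knockdown and 45.1 ± 7.99 CPM in control cells (SD, n = 2 each; adjusted p = 0.192 by edgeR). Gclm averaged 48.2 ± 0.0371 and 33.8 ± 7.14 CPM (adjusted p = 0.212 by edgeR). They too were named after their values were seen.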
